A study of Mus musculus with 2 samples.

Results

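The mast cell and basophil genes are 9 genes of tissue mast cells and blood basophils, the granulocytes that carry the high-affinity IgE receptor, and they were followed in 2 bone marrow cultures. They were chosen by name, as every probe set whose platform annotation gives Gata2, Kit, Fcer1a, Ms4a2, Cd200r3, Hdc, Cpa3, Tpsb2 or Mcpt8, which gave 15 probe sets for 9 of the 18193 genes that have a probe set of their own. The cultures held bone marrow cells of C57BL/6 mice that were given the siRNA against the long non-coding RNA named lncMDSC in the labels (silncMDSC, the study's lnc-C/EBPβ) or a control siRNA, and then grew in GM-CSF and IL-6 over 4 days, a mixture that turns marrow cells into myeloid-derived suppressor cells (MDSCs). Each group was 1 culture on 1 Affymetrix array, so siRNA, culture and array cannot be told apart, no p can be given, and every difference here is a size measured once. The targeted RNA has no named probe set, and the extent of its knockdown was not analysed here. The whole culture was measured without sorting, so fewer cells of a type and less RNA per cell cannot be told apart.

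Mast cells and basophils both arise from granulocyte progenitors that express the transcription factor Gata2, and both store histamine and proteases in granules. IgE on their surface is bound by a receptor made of an α chain (Fcer1a), a β chain (Ms4a2) and a γ chain dimer (Fcer1g), and cross-linking by antigen releases the granules. Mast cells keep Kit, the receptor of stem cell factor, whereas mature basophils lose most of it and in mice make the protease Mcpt8. In marrow cultures, IL-3 and GM-CSF signal through a shared β chain and can support such cells beside the neutrophil-like and monocyte-like cells that dominate.

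Each of the 9 mast cell and basophil genes differed by less than 1.5-fold between the 2 cultures. All 9 genes had at least 1 probe set above the floor, an intensity of 78.4 set at the median of both arrays, as did 11920 of the 18193 genes. This floor does not test whether a message is present. Tpsb2 stood only just over it, with 90 in silncMDSC and 81.3 in control siRNA. Of the 9, 0 were higher in silncMDSC by 1.5-fold or more, against 0.948% of all genes above the floor, and 0 were lower by as much, against 1.42%. At 2-fold the counts were likewise 0 and 0, against 0.168% and 0.134% of all genes. With shares this low, counts of 0 are usual for any 9 genes and do not set these apart. At 1.3-fold they were 1 higher, Cpa3, against 2.90%, and 1 lower, Fcer1a, against 4.73%. Cpa3 (log2 difference, silncMDSC minus control siRNA, 0.48) and Cd200r3 (0.35) were the farthest above control and Fcer1a (-0.44) was the farthest below. At least as far from 0 on either side lay 4.09% of all genes for Cpa3, 9.07% for Cd200r3 and 5.44% for Fcer1a. The other 6 lay between -0.03 and 0.14. The median of the 9 was 0.06, beside -0.002 over all genes above the floor, and 7 of the 9 (77.8%) lay above 0, beside 49.3% of all genes. Among those above 0, Mcpt8 (0.02), Ms4a2 (0.04) and Hdc (0.06) lay close to it.

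**Figure D1:**
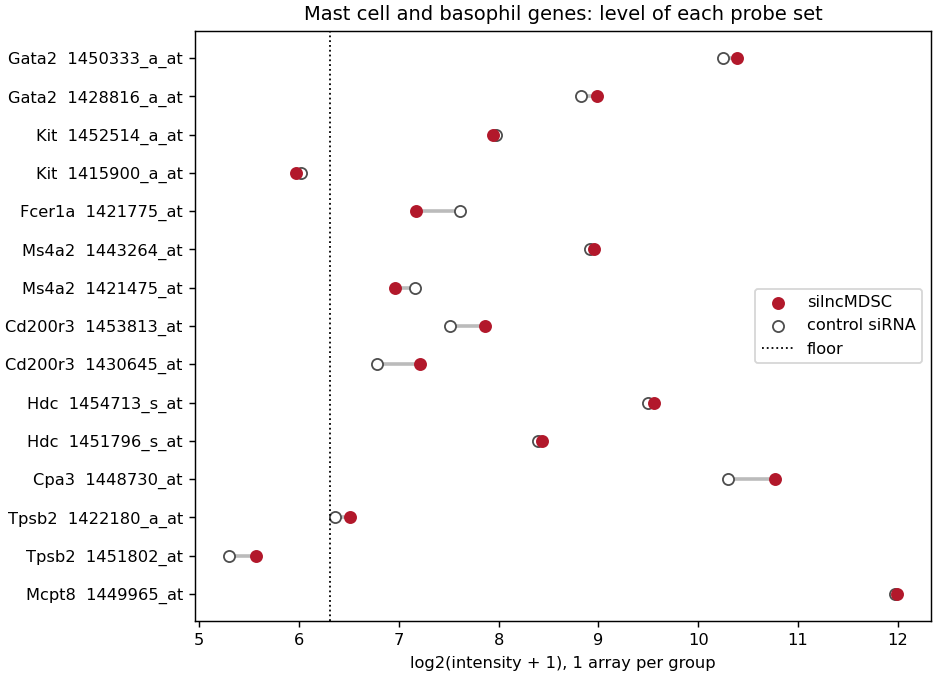
Level of each of the 15 probe sets, as log2(intensity + 1) on the x axis, on the silncMDSC array (filled red) and the control siRNA array (open), with the floor dotted. The widest gaps are those of Cpa3, Fcer1a and Cd200r3, while the points of Mcpt8, Kit and Hdc nearly coincide. Levels of different probe sets are not comparable with each other.

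A scale for these differences came from the array itself, in the absence of replicates. Over the 11920 genes the differences had a robust SD (scaled median absolute deviation) of 0.18, a spread that holds both probe noise and true changes elsewhere, and is not replicate error. For the 4845 genes with at least 2 probe sets above the floor, the differences from the 2 brightest were 0.09 apart in the median and 0.29 apart at the 90th percentile, and they had the same sign in 71.8%. Differences of about 0.1 or less, which were those of Kit, Ms4a2, Hdc and Mcpt8, were thus no larger than the usual gap between 2 probe sets of 1 gene.

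Gata2, the zinc finger factor that mast cells and basophils need for their development, was slightly higher in silncMDSC on both of its probe sets. Probe set 1450333_a_at had an intensity of 1343 in silncMDSC and 1216 in control siRNA, 1.11-fold higher (log2 0.14). Probe set 1428816_a_at had 505 in silncMDSC and 453 in control siRNA (0.16). The gap of 0.01 between the 2 readings was small, but 19.2% of all genes lay at least as far above control as 1450333_a_at.

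Of 18 other transcription factors of these lineages, 17 were above the floor, 0 were 1.5-fold apart and the median was -0.03, with 8 above 0 and 9 below. Gata1, the partner of Gata2 in mast cells, had 119.9 in silncMDSC and 98.2 in control siRNA (0.29). Stat5b, which carries IL-3 and GM-CSF signals, had 609 in silncMDSC and 499.6 in control siRNA (0.28), although its other probe set gave 0.05. Mitf, the helix-loop-helix factor of the mast cell branch, went the other way, with 495 in silncMDSC and 604 in control siRNA (-0.29) on 1455214_at and a difference of -0.15 on its other probe set.

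GATA factors bind the letters GATA flanked by A or T before and A or G after, so the RefSeq promoter windows of the members (GRCm38.p6, 250 bases before the annotated start to 50 after) were searched for AGATAA, for AGATAG, for TGATAA and for TGATAG on both strands, so that AGATAA also counted where it reads TTATCT. Windows were found for 8 of the 9 genes, not for Tpsb2. Kit and Gata2 have 2 windows each, so there were 10 in all. At least 1 match stood in 5 of the 10 windows (those of Cpa3, Fcer1a, Ms4a2, Cd200r3 and Hdc) and none in those of Mcpt8, Kit and Gata2, while 29.8% of all 32851 windows of this length hold a match and 7.77% hold 2 or more. The windows of the 3 genes farthest from 0 and of Ms4a2, the second IgE receptor chain, are shown with the matches in capitals, each 5′ to 3′ on the strand of the gene.
Cpa3, chr3:20242132-20242431, minus strand: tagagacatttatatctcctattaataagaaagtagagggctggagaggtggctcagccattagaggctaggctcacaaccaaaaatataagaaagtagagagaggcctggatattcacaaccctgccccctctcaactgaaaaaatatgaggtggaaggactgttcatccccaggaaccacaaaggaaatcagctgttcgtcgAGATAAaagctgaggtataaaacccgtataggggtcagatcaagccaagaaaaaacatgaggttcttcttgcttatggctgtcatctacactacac
Cd200r3, chr16:44943428-44943727, plus strand: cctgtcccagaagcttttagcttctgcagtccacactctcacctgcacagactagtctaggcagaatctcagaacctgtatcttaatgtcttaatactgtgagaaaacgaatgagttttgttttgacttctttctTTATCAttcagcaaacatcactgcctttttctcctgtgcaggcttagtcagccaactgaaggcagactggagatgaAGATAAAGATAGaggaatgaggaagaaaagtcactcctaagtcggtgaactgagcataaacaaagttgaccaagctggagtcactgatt
Fcer1a, chr1:173227180-173227479, minus strand: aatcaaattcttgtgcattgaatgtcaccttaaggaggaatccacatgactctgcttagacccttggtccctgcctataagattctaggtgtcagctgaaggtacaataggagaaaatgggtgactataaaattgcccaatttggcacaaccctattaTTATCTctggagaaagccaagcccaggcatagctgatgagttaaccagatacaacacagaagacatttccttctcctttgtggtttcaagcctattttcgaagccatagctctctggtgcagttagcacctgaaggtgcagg
Ms4a2, chr19:11623670-11623969, minus strand: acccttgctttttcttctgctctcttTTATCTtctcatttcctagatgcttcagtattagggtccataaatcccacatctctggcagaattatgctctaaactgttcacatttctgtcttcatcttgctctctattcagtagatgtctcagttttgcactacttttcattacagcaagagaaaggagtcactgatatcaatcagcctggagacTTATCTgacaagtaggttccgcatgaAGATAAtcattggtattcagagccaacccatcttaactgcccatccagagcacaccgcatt
The match of Cpa3 began 46 bases before the start and that of Fcer1a 92 bases before it. Ms4a2 and Cd200r3 had 3 matches each, at 224, 37 and 11 bases and at 115, 39 and 33 bases before the start, and the last 2 of Cd200r3 adjoin without overlapping. Of the genes with a match, Cpa3 (0.48), Cd200r3 (0.35), Hdc (0.06) and Ms4a2 (0.04) lay above control and Fcer1a (-0.44) below. Of those without, Gata2 (0.14) and Mcpt8 (0.02) lay above and Kit (-0.03) below. A tie between matches and differences was not tested. A match is a description of letters, and binding was not measured in these data.

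Kit, the receptor tyrosine kinase for stem cell factor that mast cells keep and that early progenitors also carry, was nearly level. Probe set 1452514_a_at had 245 in silncMDSC and 249 in control siRNA (-0.03). Probe set 1415900_a_at, below the floor on both arrays, had 61.8 in silncMDSC and 63.6 in control siRNA (-0.04). Kitl, its ligand, was below the floor on both arrays (67.0 in silncMDSC and 68.9 in control siRNA).

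The receptors for growth factors and alarmins that act on mast cells and basophils had 8 of 11 members above the floor, a median of 0.11, and 1 member higher by more than 1.5-fold against 0 lower by as much. Il18r1, a chain of the IL-18 receptor, was the member past 1.5-fold, with 408 in silncMDSC and 219 in control siRNA, 1.86-fold higher (0.89). Il1rap, the chain that the IL-33 and IL-1 receptors share, was lower, with 236 in silncMDSC and 320.5 in control siRNA (-0.44), and a dimmer Il1rap probe set, also over the floor, read -0.40. Crlf2, the receptor of TSLP, had 2089 in silncMDSC and 1860 in control siRNA (0.17). The IL-3 receptor α chain Il3ra had 201 in silncMDSC and 180.2 in control siRNA (0.15), and the β chain Csf2rb, shared with GM-CSF, had 7332 in silncMDSC and 7461 in control siRNA (-0.03).

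The 2 chains that are particular to the IgE receptor did not move alike. Fcer1a, the α chain that binds IgE, had 143 in silncMDSC and 194 in control siRNA on its single probe set 1421775_at, 1.35-fold lower (-0.44), and 3.38% of all genes lay at least as far below control. Ms4a2, the β chain that amplifies the signal, had 495 in silncMDSC and 483 in control siRNA on 1443264_at (0.04). Its other probe set, 1421475_at, had 124 in silncMDSC and 142 in control siRNA (-0.20), so the sign of Ms4a2 depended on the probe set, and the mean of both was -0.08. The gap of 0.23 between them was below the 90th percentile of such gaps. Fcer1g, the γ chain that other Fc receptors of myeloid cells also use, had 4600 in silncMDSC and 4685 in control siRNA (-0.03).

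The list of Fcer1g and the signalling genes downstream of the receptor had 16 genes with a probe set of their own, while Lyn had none. All 16 were above the floor, 0 were 1.5-fold apart, and their median was 0.01 with 8 above 0 and 8 below. Fyn, a Src family kinase that T cells also use, was the farthest from 0, with 205 in silncMDSC and 147 in control siRNA (0.48), and its second probe set gave 0.45. Gab2, the adaptor that Fyn engages in mast cells, had 851 in silncMDSC and 702 in control siRNA (0.28), but its other probe sets gave 0.07 and -0.07. Plcg1, a phospholipase that releases calcium, had 139 in silncMDSC and 116 in control siRNA (0.26), with its other probe sets below the floor. The kinase Syk, which docks on the γ chain, had 1241 in silncMDSC and 1332 in control siRNA (-0.10), but 2 dimmer Syk probe sets above the floor read 0.16 and 0.01.

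**Figure D2:**
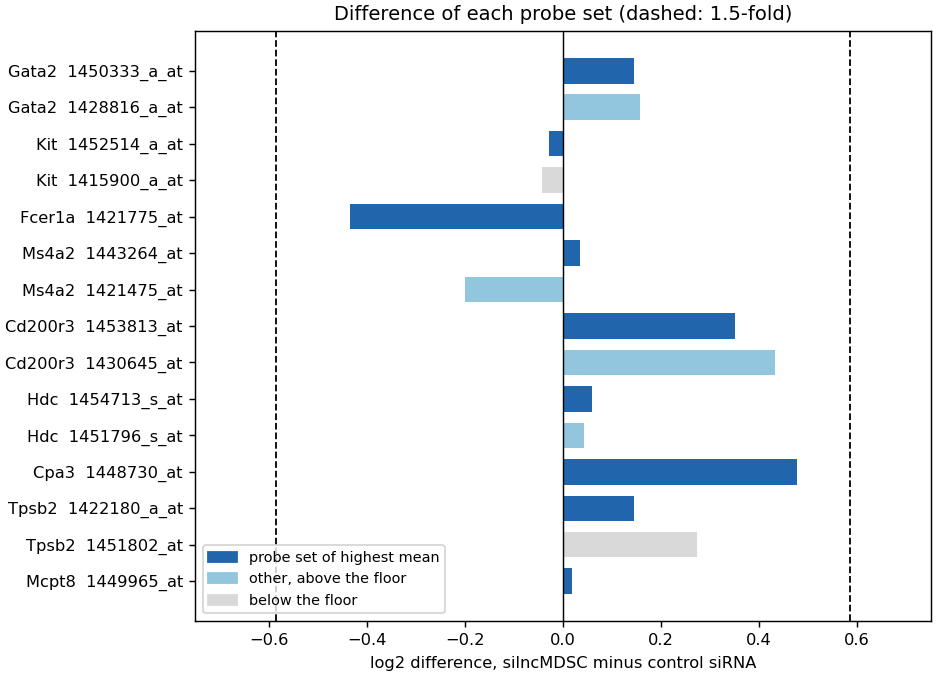
Difference of each probe set, silncMDSC minus control siRNA (x axis, log2), with the probe set of highest mean of each gene in dark blue, others above the floor in light blue and those below it in grey. All 15 bars end inside the dashed 1.5-fold lines, and Ms4a2 has 1 bar on each side of 0.

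Cd200r3, an activating receptor that mouse mast cells and basophils carry, was higher in silncMDSC on both probe sets. Probe set 1453813_at had 231 in silncMDSC and 181 in control siRNA, 1.28-fold higher (0.35). Probe set 1430645_at had 147 in silncMDSC and 109 in control siRNA, 1.35-fold higher (0.43). These 2 readings were 0.08 apart, and 3.51% of all genes lay at least as far above control as 1453813_at.

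The rest of the CD200 receptor family differed less. All 7 genes of this list with a probe set of their own were above the floor, 0 were 1.5-fold apart and the median was 0.11. Cd200r1, the inhibitory receptor of the family, had 409.8 in silncMDSC and 371 in control siRNA (0.14), and Cd200r4 had 633 in silncMDSC and 634 in control siRNA. Tyrobp, the adaptor DAP12 through which Cd200r3 signals, had 7509 in silncMDSC and 7559 in control siRNA (-0.01). Hcst, the adaptor DAP10, had 531 in silncMDSC and 437 in control siRNA (0.28), and Dok1, an adaptor of inhibitory receptors, had 700.4 in silncMDSC and 609.5 in control siRNA (0.20).

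Hdc, the enzyme that makes histamine from histidine, was nearly level on both probe sets. Probe set 1454713_s_at had 750.1 in silncMDSC and 720.2 in control siRNA (0.06), and 1451796_s_at had 345 in silncMDSC and 335 in control siRNA (0.04). Both names end in _s_at, a class that can match more than 1 transcript, so Hdc had no reading free of that limit. Of 7 further histamine genes, 6 were above the floor, 0 were 1.5-fold apart and the median was 0.07. Slc18a2, the transporter that loads histamine into granules, had 98.4 in silncMDSC and 75.7 in control siRNA (0.37), where the control siRNA value was below the floor. Hnmt, which breaks histamine down, had 117 in silncMDSC and 133 in control siRNA (-0.18), and the receptor Hrh3 had 142.9 in silncMDSC and 129 in control siRNA (0.14).

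Among the granule proteases, Cpa3 was higher in silncMDSC and Mcpt8 was level. Cpa3, the carboxypeptidase that mast cells and mouse basophils store, had 1750.4 in silncMDSC and 1257 in control siRNA on its single probe set 1448730_at, 1.39-fold higher (0.48). Of all genes above the floor, 1.59% lay at least as far above control. It was the only one of the 9 outside the central 95% of genes of like level (4 groups of equal size by mean level), which ran from -0.45 to 0.38. Mcpt8, the protease by which mouse basophils are known, had 4082 in silncMDSC and 4030.05 in control siRNA on 1449965_at (0.02).

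Tpsb2, a tryptase of connective tissue mast cells, was near the floor. Probe set 1422180_a_at had 90 in silncMDSC and 81.3 in control siRNA (0.14), and 1451802_at, below the floor on both arrays, had 46.5 in silncMDSC and 38.3 in control siRNA (0.27). Of 13 other genes of granule proteases and their proteoglycan, 10 had a probe set of their own, 6 were above the floor and 0 were 1.5-fold apart, with a median of 0.03. Tpsg1, a membrane-anchored tryptase, had 124 in silncMDSC and 103 in control siRNA (0.26). Ndst2, which sulphates the heparin that holds mast cell proteases, had 249.9 in silncMDSC and 219.7 in control siRNA (0.18). Ctsg, a protease that neutrophils also store, had 5868 in silncMDSC and 6464 in control siRNA (-0.14).

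The genes that tell mast cells from basophils were read side by side as a check of the name. Of 9 mast cell markers with a probe set of their own, 5 were above the floor (Kit, Tpsb2, Mcpt4, Mitf and Slc18a2), and 4 were below it on both arrays, among them the chymase Cma1 (30.9 in silncMDSC and 28.5 in control siRNA) and the tryptase Tpsab1 (40.7 in each). Kit and Mitf are also expressed outside mast cells. Of 8 basophil markers, 6 were above the floor (Mcpt8, Itgb2l, Il3ra, Cd200r3, Cyp11a1 and Il4), and only Itga2 and Ccr3 were below it on both arrays. Of all genes, 65.5% were above the floor, so these counts do not tell the 2 cell types apart. Which cells of the culture gave the readings of Itgb2l, Il3ra or the others was not measured. The mast cell markers had 0 members 1.5-fold apart and a median of 0.06, with 3 above 0 and 2 below. The basophil markers also had 0 members 1.5-fold apart, with a median of 0.14, 5 above 0 and 1 below. Their list holds Cd200r3 (0.35), which mast cells carry too. Cyp11a1, the first enzyme of steroid synthesis, had 668 in silncMDSC and 469.7 in control siRNA (0.51) on 1448804_at, with its other probe sets below the floor. Of the mast cell proteases, Cma1 and Tpsab1 were thus under the floor, Tpsb2 was close to it, and Mcpt4 was above it (125.6 in silncMDSC and 120.03 in control siRNA, 0.06).

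Among the products that mast cells and basophils release, a few genes differed by more than 1.5-fold and most did not, and other cells in the culture can make them too. Ltc4s, which makes leukotriene C4 and is also expressed by eosinophils and monocytes, had 496 in silncMDSC and 235 in control siRNA, 2.11-fold higher (1.08). Ptgs2, the inducible prostaglandin enzyme, had 52.5 in silncMDSC, below the floor, and 118 in control siRNA (-1.16). The other Ptgs2 probe set was below the floor on both arrays and read -0.13. Pla2g4a, the phospholipase that frees arachidonic acid, had 520.3 in silncMDSC and 646 in control siRNA (-0.31). In all, the 8 lipid mediator genes had a median of 0.05, and those past 1.5-fold were 1 above control (Ltc4s) and 1 below (Ptgs2).

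The 7 cytokine genes above the floor had a median of -0.55, with 3 below control by more than 1.5-fold and 0 above it by as much. The 3 were Ccl4 (337 in silncMDSC and 596 in control siRNA, -0.82), Tnf (226 in silncMDSC and 400.03 in control siRNA, -0.82) and Il6 (183 in silncMDSC and 302 in control siRNA, -0.72), which monocytes and macrophages also make. Macrophage markers were lower as well, with all 10 below 0, 5 of them by more than 1.5-fold, a median of -0.47 and a summed intensity of 11800 in silncMDSC and 14769 in control siRNA. Those past 1.5-fold were the mannose receptor Mrc1 (-0.93), the scavenger receptor Msr1 (-0.91), the lipoprotein Apoe (-0.88), the transcription factor Maf (-0.85) and the receptor kinase Mertk (-0.69). Adgre1, whose product marks macrophages in the paper's flow cytometry, was level, with 3068 in silncMDSC and 3070 in control siRNA (-0.001). C1qa was nearly so (-0.03). The paper reports more macrophages with that surface marker after lentiviral shRNA knockdown, a count of cells and not of RNA. None of the 10 was at the lowest value of the table, and their part in the cytokine differences was not tested. The cytokines by which basophils are known differed little. Il4 had 94.7 in silncMDSC and 86.7 in control siRNA (0.13), near the floor, and Il13 had 192 in silncMDSC and 188 in control siRNA (0.02).

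**Figure D3:**
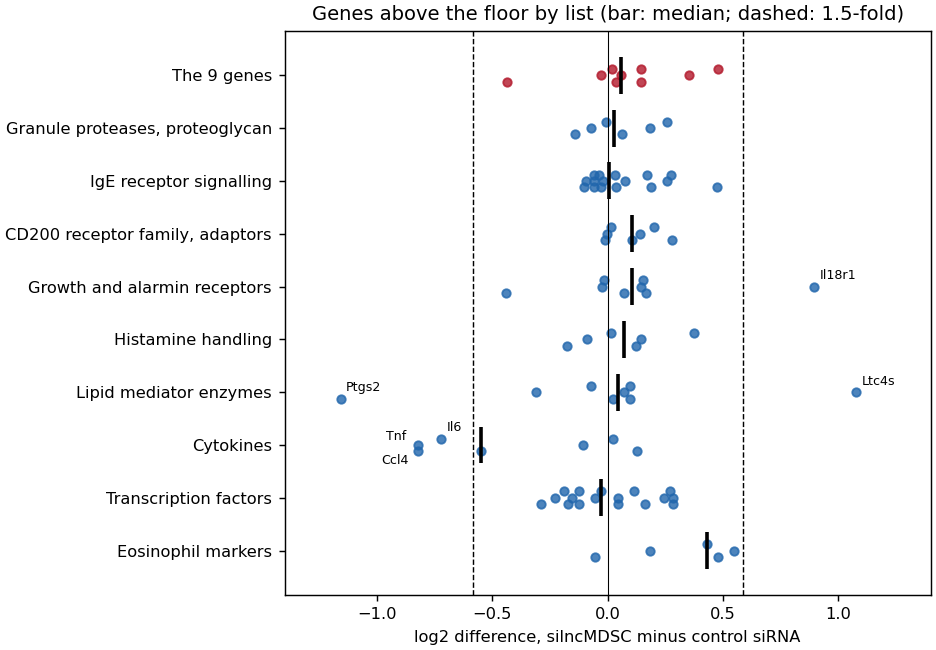
Each point is a gene above the floor and its difference, silncMDSC minus control siRNA (x axis, log2), for the 9 genes (red) and 9 other lists (blue), with medians as black bars and the 1.5-fold lines dashed. The 9 genes stay inside the lines, whereas Ltc4s (1.08) and Il18r1 (0.89) lie beyond the upper one and Ptgs2, Tnf, Ccl4 and Il6 beyond the lower.

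Most eosinophil markers above the floor lay above control, as Cpa3 and Cd200r3 did. Of 10 markers, 7 had a probe set of their own and 5 were above the floor, with 0 of them 1.5-fold apart, a median of 0.43, 4 above 0 and 1 below. The granule protein Prg2 had 2954 in silncMDSC and 2022 in control siRNA (0.55), the lectin Siglecf had 362 in silncMDSC and 259.7 in control siRNA (0.48), and the peroxidase Epx had 529 in silncMDSC and 392 in control siRNA (0.43). The granule protein Prg3 differed less (0.18), and the lipoxygenase Alox15 was slightly below control (-0.05). The summed intensity of the 7 was 4631 in silncMDSC and 3417 in control siRNA, and that of the 9 mast cell and basophil genes was 9130.4 in silncMDSC and 8412 in control siRNA. Such sums weigh bright probe sets most. Of the 9, the brightest was Mcpt8, which was level (0.02), Cpa3 rose from 1257 to 1750, and the median was 0.06. None of the 7 stood at the lowest value of the table, and Il5ra and Ccr3 did not reach the floor on either array. Dendritic cell markers were higher too: all 10 lay above 0, 5 of them by more than 1.5-fold, with a median of 0.52 and a summed intensity of 22673 in silncMDSC and 16696 in control siRNA. Those past 1.5-fold were the MHC class II chain H2-Eb1 (0.75), its transactivator Ciita (0.70), the integrin chain Itgax (0.66), the chemokine receptor Ccr7 (0.64) and the transcription factor Batf3 (0.62). Dimmer Ciita probe sets, also above the floor, read 0.38 and 0.09. None of these 10 was at the lowest value of the table. The part of either cell type in the differences of Cpa3 and Cd200r3 was not tested.

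The arrays as a whole were close. The median intensity was 79.0 in silncMDSC and 77.95 in control siRNA, and 97.6% of genes above the floor lay within 1.5-fold. The MDSC markers Itgam, S100a8, S100a9 and Cd33 were all above the floor with 0 of them 1.5-fold apart, while Ly6g, Ly6c1 and Ly6c2 have no probe set of their own. A probe set that Ly6c1 and Ly6c2 share, which is in no count here, had 8671 in silncMDSC and 8777 in control siRNA (-0.02).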

How the data were processed

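The authors deposited 1 column of linear intensities for each array, made from 6 µg of total RNA per the labels. The submitters' processing notes name RMA without a version. RMA usually gives log2 values, whereas these were linear with a lowest value of 1, and the sources used here do not give the step between. Scanner files were not used here. The limma test that the methods name, with its 2-fold limit, needs replicates and could not be run.

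Differences were log2(intensity + 1) of silncMDSC minus control siRNA, and folds are on that scale, which understates those of dim probe sets. After 64 Affymetrix control probe sets were removed, 45037 remained, of which 34945 had 1 gene symbol (932 had several and 9160 none). The probe set of highest mean stood for its gene, which was counted when at least 1 of its 2 intensities was at or over the floor. The names of all 9 genes were unchanged through Entrez identifiers in RefSeq (GRCm38.p6). The members and lists were chosen with earlier results of these data known. Named were the 9 genes with every probe set and, of each other list, the 3 genes above the floor farthest from 0 plus any at least 1.5-fold apart. Other list genes were named after their values were seen. The arrays give no pattern to match, so no gene of similar pattern was sought. The calculation was run on simulated data whose noise stayed under the fold threshold, which checks the arithmetic and not calls near that threshold. Alternatives were centring, a loess trend (span 0.3), quantile normalization, a pseudocount of 16, other probe set rules, other floors and other fold thresholds. Python 3.11.15, numpy 2.4.6, pandas 2.3.3 and statsmodels 0.14.6 were used.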

Additional observations from a re-analysis of the deposited data

How the results depend on the processing

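With the fold threshold at 1.3 in place of 1.5, 1 of the 9 genes counted as higher in silncMDSC (Cpa3, against 2.90% of all genes) and 1 as lower (Fcer1a, against 4.73%). Under every other alternative run, including a 2-fold threshold, both counts were 0. The median of the 9 ran from 0.04 to 0.11 over 9 alternatives. Cpa3 ran from 0.47 to 0.51, Cd200r3 from 0.33 to 0.39 and Fcer1a from -0.44 to -0.40, where they were above the floor in use. The sign of Ms4a2 turned with the mean of its probe sets (-0.08), and no other member changed sign. With the floor at the 75th percentile 7 members were left, and Fcer1a and Tpsb2 dropped out, so the Fcer1a difference had no reading there. With only probe sets that have no suffix for shared transcripts 5 were left. Kit, Hdc and Gata2 have none of these, and that of Tpsb2 is below the floor. A value was called moved when it changed by more than the robust SD of all genes, 0.18, and none did. Leaving out an array was not possible with 1 per group, and no depth exists for arrays, so their number limits the precision. No paired analysis was possible because each group had 1 array and the groups share only replicate number 1.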

Other observations

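Kit and Gata2 are also expressed by early progenitors and megakaryocyte precursors, whose other markers did not move one way. The 7 progenitor genes above the floor had a median of -0.12, with 0 above control by more than 1.5-fold and 1 below it. The progenitor receptor Flt3 had 112 in silncMDSC and 88.4 in control siRNA (0.34) and the surface protein Cd34 had 159.9 in silncMDSC and 129 in control siRNA (0.31). Sox4, a transcription factor of immature cells, had 239.6 in silncMDSC and 373 in control siRNA (-0.64). The 8 megakaryocyte and platelet genes above the floor had a median of 0.04, with 1 past 1.5-fold on each side. The integrin chain Itgb3 had 232 in silncMDSC and 146 in control siRNA (0.67), and the platelet chemokine Ppbp had 1502 in silncMDSC and 2302 in control siRNA (-0.62). Pf4, another platelet chemokine, had 5343 in silncMDSC and 7187 in control siRNA (-0.43). The summed intensity of the 9 genes of this list with a probe set of their own was 7690 in silncMDSC and 10219 in control siRNA, a log2 ratio of -0.41.

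The erythroid genes, which share Gata1 with mast cells, had 4 members above the floor, of which 0 were 1.5-fold apart, with a median of -0.06. These 4 hold no globin. The transferrin receptor Tfrc had 2213 in silncMDSC and 2729 in control siRNA (-0.30). Its dimmer probe sets read -0.73, with the silncMDSC value below the floor, and -0.08. The carbonic anhydrase Car2 had 599 in silncMDSC and 519.5 in control siRNA (0.20). The membrane protein Epb42 had 158 in silncMDSC and 176 in control siRNA (-0.16). Beside them stand 4 globin probe sets annotated to several genes each, which are in no count here. Of these, 3 were above the floor, and all 3 were higher in silncMDSC, by 0.22 to 0.72 on the log2 scale, 1 of them by more than 1.5-fold.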
